A study of Mus musculus with 29 samples.

Results

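The regions described here are 957 stretches of mouse chromatin with a called peak of acetylated histone H3 lysine 9 (H3K9ac) in the Tbr2-positive vehicle libraries of cortical nuclei. No peak was called on them in the Tbr2-negative vehicle libraries, which does not show that the mark was absent there. Overlapping H3K9ac peaks of the 7 vehicle libraries were merged into 180672 regions, of which 154495 lay more than 1 kb from either end of any protein-coding gene. Members of the set had a peak in all 3 Tbr2-positive vehicle libraries and in 0 of the 4 Tbr2-negative ones. The samples were embryonic cortex of mice at E16.5 that had received vehicle or trichostatin A (TSA), an inhibitor of histone deacetylases (HDACs). H3K9ac ChIP-seq covered 3 Tbr2-positive and 4 Tbr2-negative vehicle libraries, and 4 TSA libraries of each population. RNA-seq covered 3 vehicle and 2 TSA libraries of each population. The labels name no strain, dose, transgene or number of animals, and they do not say that replicates came from separate animals, so p-values measure the spread between these libraries, which may be technical. The series describes nuclei sorted by flow cytometry, whereas the protocol of the RNA samples names whole tissue, and the labels do not settle which applies.

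Tbr2 is the T-box transcription factor encoded by Eomes. It marks basal (intermediate) progenitors, which arise from radial glia in the ventricular zone and divide to give glutamatergic neurons. H3K9ac is laid down by histone acetyltransferases at active promoters and enhancers and removed by HDACs, so a peak far from a gene end is often read as a candidate enhancer. A nearest gene is only the closest gene on the linear chromosome, and it need not be the gene that such an element acts on.

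Few of the regions lay at a start site in the RefSeq table (GRCm38.p6, which is mm10): 18 met the window from 250 bases before to 50 after one (1.88%, against 2.08% of all regions away from gene ends and 22.87% of those with a peak in all 7 vehicle libraries). The first 4 sequences below are parts of such regions that lie upstream of a long noncoding RNA start and hold the best peak summit. They are shown because they lie within the called H3K9ac regions. These 4 were picked from the regions at start sites after their values were seen. They lie at chr9:91350916-91351165 (+ strand, Gm40545, nearest coding gene Zic1), chr5:113873106-113873284 (+ strand, Gm42005, near Coro1c), chr13:60488930-60489152 (- strand, A530001N23Rik, near Dapk1) and chrX:99557083-99557239 (+ strand, Gm31155, near Pja1). The other 2 are the 250 bases upstream of the starts of Eomes (chr9:118477939-118478188, + strand) and Nhlh1 (chr1:172057597-172057846, - strand), the nearest genes with the largest RNA differences. Each is written 5′ to 3′ on the strand of its transcript. Capitals mark the E-boxes CAGATG (or its reverse complement CATCTG) and CAGCTG, which basic helix-loop-helix factors bind, and the T-box core GGTGTGA, searched on both strands.
Region near Zic1: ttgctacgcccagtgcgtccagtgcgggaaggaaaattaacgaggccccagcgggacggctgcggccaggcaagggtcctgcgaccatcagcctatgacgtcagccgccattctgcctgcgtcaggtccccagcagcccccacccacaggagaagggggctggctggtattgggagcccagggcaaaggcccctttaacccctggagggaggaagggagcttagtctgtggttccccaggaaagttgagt
Region near Coro1c: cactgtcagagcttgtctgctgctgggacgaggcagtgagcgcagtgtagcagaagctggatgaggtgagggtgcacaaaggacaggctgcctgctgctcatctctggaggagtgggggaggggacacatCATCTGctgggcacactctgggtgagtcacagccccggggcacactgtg
Region near Dapk1: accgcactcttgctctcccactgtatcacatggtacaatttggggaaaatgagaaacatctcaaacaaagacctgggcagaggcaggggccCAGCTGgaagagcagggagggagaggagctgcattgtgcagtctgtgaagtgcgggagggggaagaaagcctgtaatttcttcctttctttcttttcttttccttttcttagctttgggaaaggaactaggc
Region near Pja1: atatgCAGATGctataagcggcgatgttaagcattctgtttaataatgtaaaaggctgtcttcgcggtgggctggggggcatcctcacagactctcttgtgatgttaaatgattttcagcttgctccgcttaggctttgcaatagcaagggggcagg
Eomes upstream: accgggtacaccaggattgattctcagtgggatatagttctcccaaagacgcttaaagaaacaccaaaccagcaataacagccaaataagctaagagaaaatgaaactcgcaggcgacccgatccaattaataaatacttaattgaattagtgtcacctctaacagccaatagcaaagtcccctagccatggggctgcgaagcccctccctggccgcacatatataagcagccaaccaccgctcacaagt
Nhlh1 upstream: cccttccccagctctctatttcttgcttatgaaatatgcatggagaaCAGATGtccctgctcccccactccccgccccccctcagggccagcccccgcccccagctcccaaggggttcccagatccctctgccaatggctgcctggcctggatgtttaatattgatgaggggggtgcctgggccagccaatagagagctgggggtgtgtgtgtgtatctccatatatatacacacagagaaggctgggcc
The T-box core was found in none of these 6 stretches, and among all 32851 upstream windows of 250 bases 3.33% held it. CAGATG was found in the Coro1c and Pja1 stretches and upstream of Nhlh1, and 14.44% of all windows held it. The Dapk1 stretch held CAGCTG, present in 4271 of all windows. Among the other regions at start sites whose upstream stretch was searched and is not shown, that near Proca1 held the T-box core. None of these other stretches held an E-box, so every E-box match found in a searched stretch of such regions is among those shown. The parts of these regions outside the searched stretches were not searched. The stretches of the Coro1c, Dapk1 and Pja1 regions are shorter than those windows, so their matches have no background of the same length. A match is a description of letters and not evidence of binding.

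The 3 positive vehicle libraries chose the regions, so their strength there is a description. The authors' −log10 q had medians of 4.42, 4.91 and 4.05 over the 957 regions in Tbr2-positive vehicle libraries 1, 2 and 3. These peaks stood at the median percentile 54.5, 42.9 and 40.7 of all peaks of their library, whereas the 7892 regions with a peak in all 7 vehicle libraries stood at 78.1, 70.05 and 71.9. The set therefore holds peaks of middle rank and few of the strongest ones. Next to it, 1078 regions had a peak in all 3 positive and 1 of 4 negative vehicle libraries, and 4582 had one in 2 of 3 positive and 0 of 4 negative. The mirror set, with peaks in all 4 negative and 0 of 3 positive libraries, held 712 regions. At the distance limit, the closest regions kept were near Sstr3 (1003 bp) and Layn (1015 bp), and the closest left out were near Fsd2 (996 bp) and Lingo4 (977 bp).

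Member regions lay farther from gene ends than regions in general, and more of them lay outside gene bodies. Their median length was 400 bp, longer than the 194 bp of all regions away from gene ends, many of which rest on 1 library, and shorter than the 1032 bp of those with a peak in all 7 libraries. The median distance to the nearest gene end was 26.1 kb (quartiles 8.02 and 80.9 kb), against 12.5 kb for all regions and 16.51 kb for those in all 7 libraries. Of the 957, 526 (54.96%) lay inside the body of a protein-coding gene, compared with 67.63% of all regions. This share was near the 56.02% of regions with a peak in all 7 libraries. It was also near the 58.72% of those with a peak in all 3 positive and 1 negative vehicle library. They were spread over every chromosome, from 90 on chromosome 2 to 9 on X and 1 on Y. The nearest genes numbered 835: 736 had 1 region, 84 had 2, 11 had 3, 1 had 4, 2 had 5 and 1 had 6.

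RNA libraries held 18567111 to 26282652 counts. H3K9ac libraries held 15.2 to 30.3 M tags (1 M is 1e6 reads), and Tbr2-negative TSA library 4, at 15.2 M, stood apart from the other 3 of its group (22.2 to 23.1 M). Peak number differed between groups, with 31823 to 40053 peaks in the Tbr2-positive TSA libraries against 47835 to 82164 in the other 11 libraries. The Tbr2-positive TSA group was also called against the smallest input, 20.1 M tags compared with 25.9 to 30.1 M. The RNA of the sort followed its labels: all 8 basal progenitor markers were higher in the positive vehicle libraries, with a summed level of 1460 to 1960 CPM (counts scaled to library size) against 210.2 to 321 CPM. All 5 interneuron markers were lower (61.5 to 145 against 426 to 491 CPM summed), as were 3 of 4 oligodendrocyte precursor markers (5.31 to 10.6 against 29.3 to 40.6 CPM) and 2 of 5 microglia markers (8.55 to 14 against 21.1 to 38.6 CPM). Of 6 radial glia markers 1 was higher, and their sum was 750 to 942 against 640 to 670 CPM. Of 4 erythroid markers none passed, at a sum of 250 to 385 against 419 to 585 CPM, and of 4 vascular and meningeal markers none passed, at 7.31 to 25 against 11.4 to 14.1 CPM. No marker of these lists was at 0 in every library of a population, and the part of these other cell types in the results below was not tested. In bulk libraries, fewer cells of a type and less RNA per cell cannot be told apart.

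The first question was whether genes next to the regions also differed in RNA between the 2 populations, which the choice of regions did not use. Of 819 nearest genes with an identifier in the count files, 746 passed the filter on low counts. In vehicle, 176 of these were higher in Tbr2-positive libraries (23.6%, against 9.96% of all 20078 genes tested) and 122 were lower (16.4%, against 11.5%), by edgeR's quasi-likelihood test with Benjamini-Hochberg adjusted p at or under 0.05. Their median log2 fold change was 0.075, and −0.046 over all genes. Genes nearest to any region away from gene ends were higher in 12.8% and lower in 14.1% of cases, and genes nearest to the regions shared by all 7 libraries in 13.8% and 18.8%. Next to the Tbr2-negative-only regions the split ran the other way, with 9.29% higher, 33.6% lower and a median of −0.42. Nearest genes of the 957 regions thus held a larger share of higher genes than each of these sets, and their lower share lay between those of all genes and of the shared regions.

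**Figure D1:**
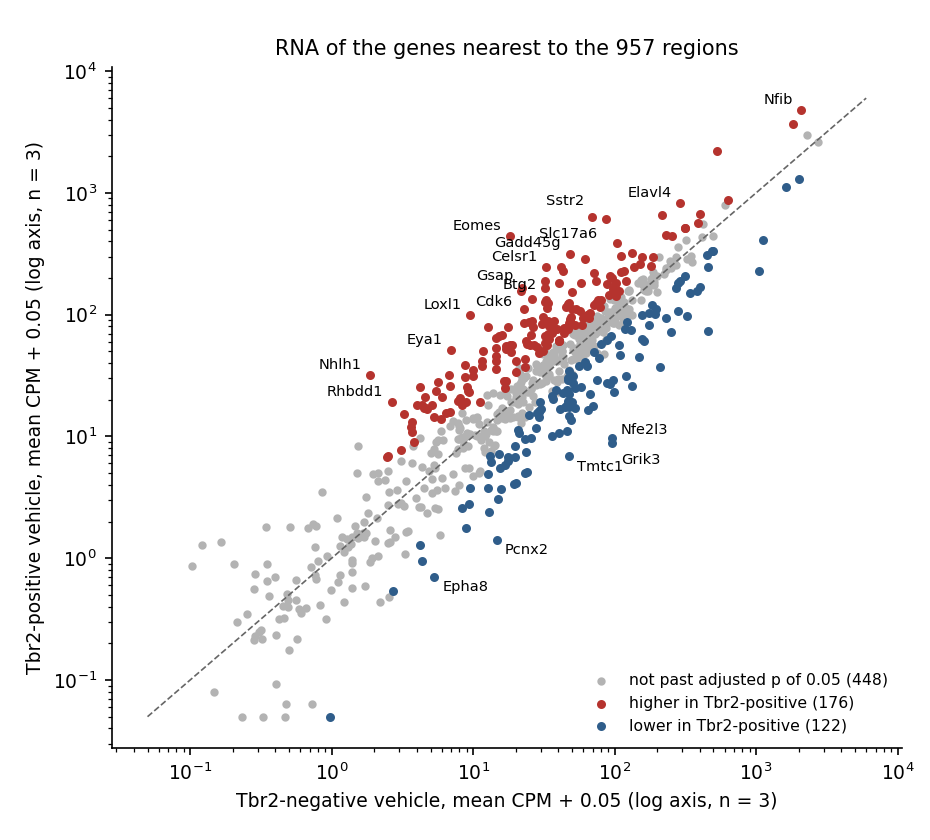
Mean RNA level (CPM + 0.05, log axes) of the 746 tested nearest genes in Tbr2-negative (x) and Tbr2-positive (y) vehicle libraries, n = 3 each; red and blue points passed an adjusted p of 0.05 in edgeR and the dashed line marks equal levels. The 176 higher genes include Eomes, Nhlh1 and Sstr2 far above the line, and the 122 lower ones include Grik3, Nfe2l3 and Pcnx2.

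Some genes of the basal progenitor program lay next to the regions, and these were all higher in the positive RNA. Of 17 genes in that list, 6 were nearest to 8 of the regions (35.3%, against 3.82% of all protein-coding genes), and all 6 were higher, the median log2 fold change being 2.96. The whole list is no independent guide to direction, since all 17 of its genes were higher in these RNA libraries. More of the 17, namely 10, were nearest to a region with a peak in all 7 vehicle libraries. Other lists had similar shares nearest to a Tbr2-positive-only region, 33.3% for radial glia and 30.0% for Wnt, Fgf and Bmp genes. Eomes had 409.9, 371 and 548 CPM in the positive and 22.0, 13.9 and 18.2 CPM in the negative vehicle libraries. The lowest positive library lay far above the highest negative one, with a difference on the log2 scale of 4.62 and a standard error (given after ± from here on) of 0.26 (adjusted p = 1.05e-06, edgeR). Its region lay at chr9:118453424-118453839, outside genes and 24.4 kb before the annotated start of the gene, with −log10 q of 2.92, 5.73 and 3.92. Nhlh1, a basic helix-loop-helix factor of newly born neurons, had 38.0, 19.5 and 38.1 CPM against 1.56, 2.02 and 1.85 CPM (4.14 ± 0.37, adjusted p = 1.33e-05). A region 3.27 kb from its end, at chr1:172060863-172061526, reached −log10 q of 8.77, 8.33 and 11.8. Sstr2, a somatostatin receptor, had 669, 508 and 719 CPM against 94.0, 50.7 and 62.9 CPM (3.19 ± 0.23, adjusted p = 5.71e-06). Its 2 regions, at 6.87 and 106 kb, both lay inside the neighbouring gene Slc39a11.

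The remaining 3 genes of the list had no overlap between populations either. Gadd45g, a stress-response regulator of cell cycle exit, stood at 362, 272 and 318 CPM against 64.5, 30.8 and 48.8 CPM (log2 fold change 2.72 ± 0.25). Btg2, an antiproliferative gene of progenitors in neurogenic division, stood at 180.4, 144 and 242 against 44.0, 25.7 and 27.2 CPM (2.55 ± 0.23). Elavl4, a neuronal RNA-binding protein, stood at 632, 811 and 1031 against 226, 345 and 303 CPM (1.501 ± 0.20). Adjusted p was 1.67e-05 for Gadd45g and for Btg2 and 0.000171 for Elavl4 (edgeR).

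**Figure D2:**
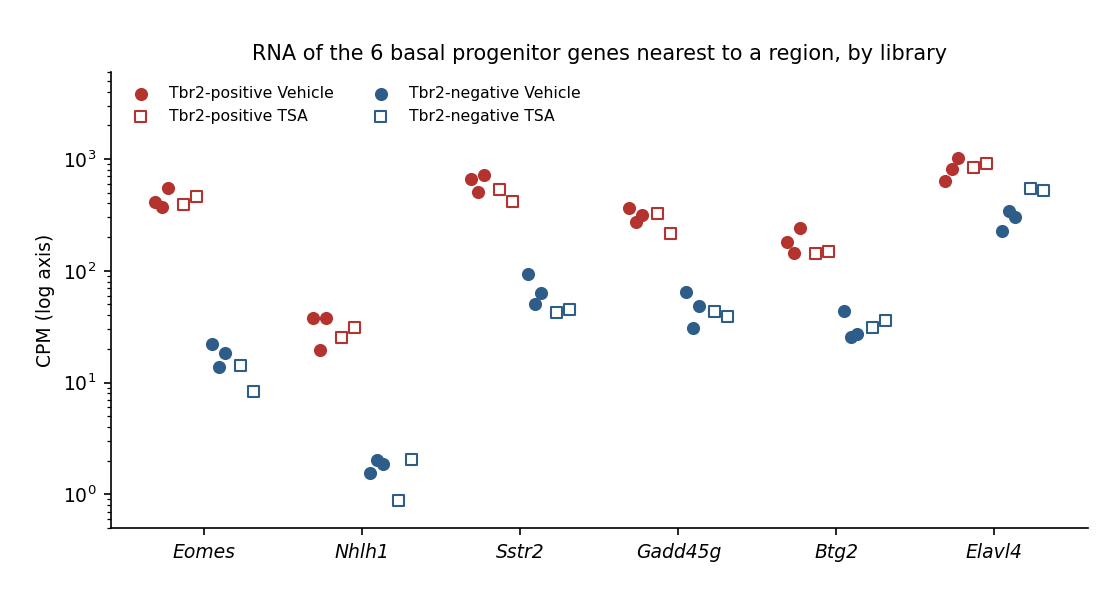
RNA level in CPM (log axis) of the 6 basal progenitor genes nearest to a Tbr2-positive-only region, 1 point per library (filled circles vehicle, n = 3; open squares TSA, n = 2; red Tbr2-positive, blue Tbr2-negative). For each gene every positive library, vehicle or TSA, lies above every negative one; Eomes has 371 to 548 CPM in positive and 13.9 to 22.0 CPM in negative vehicle.

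The other genes with the largest positive differences had varied roles. Loxl1, a lysyl oxidase-like enzyme of the extracellular matrix, had 112, 77.5 and 106 CPM in the positive against 13.6, 6.60 and 8.15 CPM in the negative vehicle libraries. Its log2 fold change was 3.38 ± 0.26 (adjusted p = 6.46e-06, edgeR), and 1 of its 2 regions lay inside the gene, 2.87 kb from its end. Celsr1, an atypical cadherin of planar cell polarity, differed by 2.90 ± 0.32 and held both of its regions in its body. Eya1, a transcriptional coactivator and phosphatase, differed by 2.89 ± 0.41, with a region inside the gene 2.98 kb from its end. Cdk6, a cyclin-dependent kinase of G1 phase, had 130, 184 and 153 against 30.6, 19.5 and 14.8 CPM (2.84 ± 0.25) and carried an intragenic region 64.5 kb from its nearest end. Slc17a6, the vesicular glutamate transporter VGLUT2, had 617, 522 and 694 against 104, 94.2 and 62.6 CPM (2.81 ± 0.20). Gsap (2.89 ± 0.35), a gamma-secretase activating protein, and Rhbdd1 (2.86 ± 0.41), a rhomboid protease, completed the 10 largest; the largest adjusted p of the 10 was 0.000307.

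Some nearest genes were lower in the positive RNA although, in vehicle, the H3K9ac peaks were called in the positive libraries alone. Grik3, a kainate receptor subunit, had 7.33, 16.1 and 2.86 CPM in the positive against 101, 82.5 and 106 CPM in the negative vehicle libraries (log2 fold change −3.46 ± 0.44, adjusted p = 0.000147, edgeR). Its region lay outside genes, 170 kb away. Pcnx2 (−3.41 ± 0.53), of the pecanex family, and Tmtc1 (−2.79 ± 0.31), an O-mannosyltransferase of the endoplasmic reticulum, each carried a region in the gene body, 54.2 and 85.6 kb from an end. Nfe2l3 (−3.31 ± 0.28), a basic leucine zipper factor, lay 70.5 kb from its region, and the ephrin receptor gene Epha8 (−2.99 ± 0.61) 12.2 kb. For 4 of these 5 genes the region thus lay over 50 kb from the nearest gene end. Those of Pcnx2 and Tmtc1 nevertheless lay inside the gene itself. Interneuron markers were lower in the same libraries, as given above, and any link to these 5 genes was not tested.

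The share of higher genes was larger, and the share of lower genes smaller, close to the regions. Within 10 kb, 69 of 239 tested nearest genes were higher (28.9%) and 19 lower (7.95%), and the median log2 fold change was 0.152. From 10 to 100 kb, 85 of 401 were higher (21.2%) and 71 lower (17.7%). Beyond 100 kb, 32 of 146 were higher (21.9%) and 40 lower (27.4%), with a median of −0.16. Of 11859 tested genes nearest to any region away from gene ends within 10 kb, 1536 were higher and 1598 (13.5%) lower, and beyond 100 kb 14.3% were higher and 27.5% lower. The lower share beyond 100 kb was therefore close to that of other distant regions, and the higher share was above it in all 3 distance classes. Genes whose regions lay inside a gene body were higher in 26.5% and lower in 16.8% of cases, and those of regions outside genes in 20.6% and 15.7%. Among the 96 tested genes with 2 or more regions, 29.2% were higher and 16.7% lower.

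**Figure D3:**
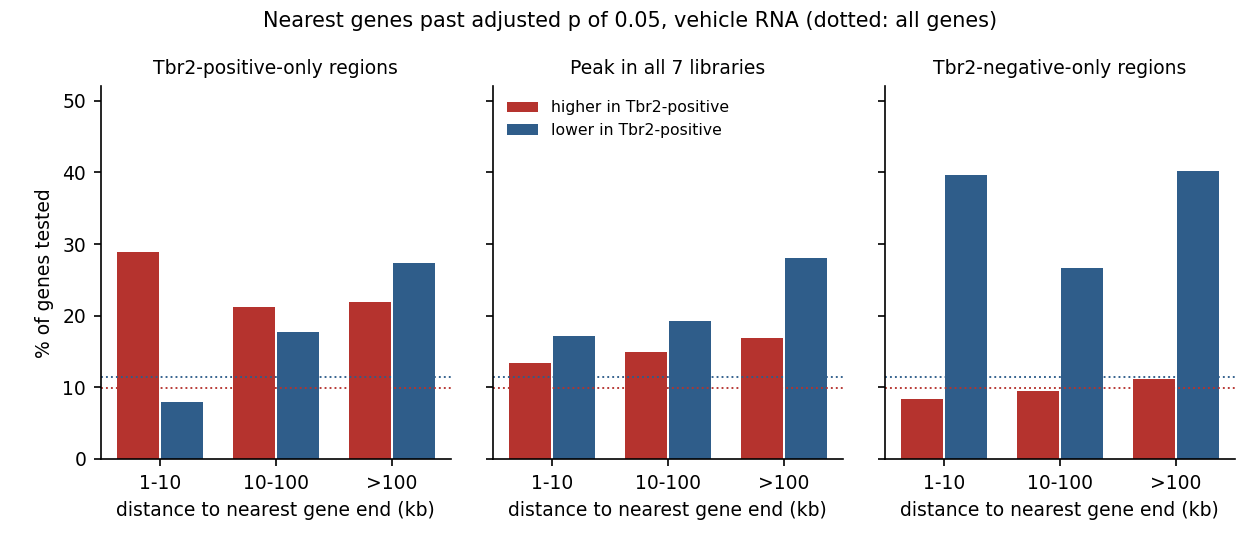
Percent of tested nearest genes that were higher (red) or lower (blue) in Tbr2-positive vehicle RNA (edgeR, adjusted p at most 0.05) by distance from region to nearest gene end, for the Tbr2-positive-only regions, the regions with a peak in all 7 vehicle libraries and the Tbr2-negative-only regions; dotted lines give all 20078 genes (9.96% and 11.5%). Higher genes reach 28.9% within 10 kb of the Tbr2-positive-only regions, and next to the Tbr2-negative-only regions lower genes make up 39.7% within 10 kb and 40.2% beyond 100 kb.

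Most nearest genes had a single region, and a few had 3 or more. The most, 6, had Tmem182 as nearest gene, a transmembrane protein gene that was not tested for RNA, at 265 to 895 kb in an intergenic stretch whose other side ends at Pou3f3, a POU-domain factor of upper-layer neurons. Of these 6 regions, 2 had a peak in all 4 Tbr2-positive TSA libraries and in 0 Tbr2-negative ones. Another 5 had BC052040 as nearest gene, and for 4 of them the neighbour on the right was Meis2, a homeobox gene, at 110.2 to 203 kb. Ubash3b, a phosphatase of tyrosine kinase signalling, had 5 regions at 124 to 364 kb and was lower in the positive RNA (17.7, 23.1 and 11.8 against 46.0, 47.7 and 49.9 CPM; log2 fold change −1.45 ± 0.22, adjusted p = 0.00051, edgeR). Hrh1, a histamine receptor gene, had 4 regions within 55.6 kb, all without a peak in any TSA library, and at most 1.47 CPM in vehicle. Boc and Cdon, co-receptors for Sonic hedgehog, had 3 regions each. Cdon had 69.8, 52.3 and 89.4 CPM against 43.8, 30.4 and 34.6 (0.96 ± 0.21, adjusted p = 0.00588). Boc had 31.6, 29.7 and 40.9 against 21.5, 19.6 and 18.6 CPM (0.77 ± 0.21, adjusted p = 0.0208), and its call was lost without positive vehicle library 3 (adjusted p = 0.0813), negative library 2 (0.057) or negative library 3 (0.0666). Cachd1, with 3 regions in its body, had overlapping levels (52.2 to 112 against 37.0 to 57.9 CPM; adjusted p = 0.16).

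The regions with the best mean rank in the 3 positive vehicle libraries were not next to any of the 10 genes named above for the largest positive RNA differences that passed. The strongest, at chr16:77893927-77894476, lay outside genes 407 kb from Cxadr, a cell adhesion receptor, with −log10 q of 18.01, 20.6 and 28.1. Cxadr RNA was slightly lower in the positive libraries (286, 340 and 373 against 466, 479 and 514 CPM; log2 fold change −0.55 ± 0.14, adjusted p = 0.0145, edgeR), a call lost without positive vehicle library 1 (adjusted p = 0.0735), 2 (0.0522) or negative library 3 (0.0709). The second, inside Faf1, a Fas-associated factor, at chr4:109763009-109763668, had −log10 q of 13.7, 17.7 and 16.0. Faf1 had 36.8, 35.5 and 30.5 against 43.1, 46.8 and 52.4 CPM (−0.47 ± 0.15, adjusted p = 0.0443), and the call was lost without most single libraries (adjusted p up to 0.169), with RLE scaling (0.054), without the filter on low counts (0.127) and with the replicate number as a block (0.0578). Nfib, a nuclear factor I transcription factor of cortical development, had 3 regions at 27.6, 33.8 and 48.8 kb. Its mean in the positive vehicle libraries was the highest of all nearest genes with a value, with 4755, 4044 and 5475 CPM in the positive and 1727, 2213 and 2335 CPM in the negative vehicle libraries (1.19 ± 0.17, adjusted p = 0.000259). Tnc, an extracellular matrix protein of radial glia, had overlapping levels of 34.7 to 59.6 and 52.8 to 125 CPM (adjusted p = 0.068). Ppara, a nuclear receptor of lipid metabolism, had low levels of 0.211, 1.20 and 2.51 against 0, 0.160 and 0.185 CPM and a log2 fold change of 3.47 ± 1.32, which did not pass by edgeR (adjusted p = 0.0806) and passed by DESeq2 (adjusted p = 0.0302). Among the genes of these strongest regions, Tmem38b, Opn1sw, Prok2 and Epc2 did not pass either, with adjusted p from 0.301 for Prok2 to 0.891 for Epc2.

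Other fixed lists describe which programs lay next to the regions, beside the 3.82% of all protein-coding genes and 5.17% of genes nearest to any region. Of 24 radial glia genes, 8 were nearest (33.3%), and 5 of these were higher and 0 lower in the positive RNA. In the whole list 9 of 24 were higher and 2 lower (median 0.34), and 17 of the 24 were nearest to a region with a peak in all 7 vehicle libraries. Those 5 were Emx2 (log2 fold change 2.15 ± 0.28), Mki67 (1.90 ± 0.31), Lhx2 (1.65 ± 0.17), Gli3 (1.42 ± 0.21) and Notch1 (1.36 ± 0.30), with adjusted p of at most 0.00533 (edgeR). Emx2 and Lhx2 are homeodomain factors of the dorsal telencephalon, Gli3 is a hedgehog pathway factor, Notch1 a receptor that maintains progenitors and Mki67 a proliferation antigen. Notch1 had 3 regions in its body, 3.62, 10.1 and 20.7 kb from an end, and 69.8, 42.0 and 70.8 against 34.5, 19.5 and 16.7 CPM. Sox9, with 3 regions at 84.8 to 302 kb, stood at 32.3 to 40.7 against 24.4 to 30.5 CPM and did not pass (adjusted p = 0.0967).

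Signalling and neuronal lists were also represented. Of 30 Wnt, Fgf and Bmp genes 9 were nearest (30.0%), with 3 higher and 1 lower. The Wnt effector Tcf7l2 (2.62 ± 0.35; 19.9, 30.1 and 26.98 against 6.51, 2.98 and 2.92 CPM), the ligand Wnt5a (1.81 ± 0.30) and Ctnnb1, which encodes beta-catenin (0.53 ± 0.15), were higher. The ligand Wnt7b was lower (−0.64 ± 0.14). Their largest adjusted p was 0.0196, for Ctnnb1 (edgeR). In the whole Wnt, Fgf and Bmp list 7 of 29 tested genes were higher and 3 lower. Of its 30 genes, 19 were nearest to a region with a peak in all 7 vehicle libraries. In the deep-layer neuron list 3 of 12 genes were nearest, holding 7 regions: Nfia (1.59 ± 0.19) and Nfib were higher and Sox5 (−0.62 ± 0.18, adjusted p = 0.0256) lower. The list as a whole ran the other way, with 2 higher and 8 lower of 12 and a median of −0.65. As many of the 12 genes, 3, were nearest to a Tbr2-negative-only region. Of 20 genes of migrating and newborn neurons 3 were nearest, and Rnd2 was higher (260.0, 256 and 342 against 59.2, 58.6 and 66.9 CPM; 2.21 ± 0.17, adjusted p = 5.71e-06), while Cux1 and Sox11 did not pass. In that whole list 8 of 20 were higher and 5 lower, and 13 were nearest to a region shared by all 7 libraries. Of 19 Notch genes 3 were nearest, with Notch1 higher and Jag1 and Nrarp not past the test. That whole list had 8 of 19 higher and 2 lower, with 11 nearest to a region shared by all 7 libraries.

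The remaining lists gave 5 or fewer nearest genes each. In axon guidance 5 of 40 genes were nearest (12.5%), with 0 higher and 2 lower, the netrin receptor Unc5c (−1.36 ± 0.25) and the semaphorin Sema3e (−0.93 ± 0.29). More of that list, 10 of 40, were nearest to a Tbr2-negative-only region. Of its 39 tested genes, 10 were higher and 12 lower. The cell cycle list had 2 of 20 (Cdk6 and Mki67, both higher, in a list with 17 of 20 higher in the same RNA), chromatin regulators 1 of 25 (the acetyltransferase Kat6b, higher by 0.99 ± 0.17) and oligodendrocyte precursors 1 of 6 (Pdgfra, lower by 2.29 ± 0.39 on the log2 scale). Of all 25 chromatin regulators 7 were higher and 2 lower, and of all 6 oligodendrocyte precursor genes 5 were lower. No gene of the interneuron (16), microglia (12), vascular and meningeal (16) or erythroid (8) lists was nearest to any of the 957 regions. Lists this short can lack a nearest gene at the 3.82% share of all protein-coding genes, so this shows no absence of these programs. Of the 16 interneuron genes, 7 were nearest to a Tbr2-negative-only region, as were 2.83% of all protein-coding genes. The lists overlap, since Notch1 and Mki67 count under 2 each.

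Peaks at the ends of the same genes were mostly shared. Of 835 nearest genes, 629 had an H3K9ac peak within 1 kb of an end in all 7 vehicle libraries, 99 had none, 1 had one in the positive libraries alone and 2 in the negative alone. Among all 21887 protein-coding genes these numbers were 12783, 6271, 22 and 92. On the 250 bases upstream of Eomes printed above, a peak was present in 3 of 3 positive and 2 of 4 negative vehicle libraries, and under TSA in 4 of 4 positive and 0 of 4 negative ones. The upstream stretch of Nhlh1 carried a peak in 1 of 3 positive and 2 of 4 negative vehicle libraries and in 0 of 8 TSA libraries.

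The second question was how many of the regions still carried a peak under TSA, in libraries the choice did not use. In Tbr2-positive TSA libraries 1, 2, 3 and 4 the share of the 957 regions with a peak was 17.9%, 24.97%, 19.02% and 14.2%. In Tbr2-negative TSA libraries 1, 2, 3 and 4 it was 17.4%, 20.2%, 19.5% and 7.94%. The ranges overlapped, with means of 19.02% ± 4.47 and 16.3% ± 5.68 (SD, n = 4 each), and the negative mean was 19.05% without library 4. Regions with a peak in all 7 vehicle libraries kept one in 78.4% to 84.1% of cases in positive and 88.5% to 95.8% in negative TSA libraries. Tbr2-negative-only regions kept one in 53.2% to 75% of cases in the negative TSA libraries and gained one in 2.39% to 6.04% in the positive ones. Of all regions away from gene ends, 5.95% to 8.61% had a peak in a positive and 11.1% to 18.5% in a negative TSA library.

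By the sequencing lane in the library names, the positive share was the larger one in lanes 1 and 3 and the smaller one in lane 2. In lane 1 the positive TSA share was 21.4% (mean of 2 libraries) and the negative 17.4% (1 library). In lane 2 these were 19.02% (1) and 19.9% (2), and in lane 3 14.2% and 7.94% (1 each). With 1 or 2 libraries per lane and group these are values without a test.

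Counted by region, 413 of the 957 (43.2%, against 12.6% of all regions away from gene ends) had a peak in at least 1 positive TSA library, 89 (9.30%, against 4.95%) in at least 3 and 31 (3.24%, against 3.68%) in all 4. The other 544 (56.8%, against 87.4%) had none in the positive TSA libraries. In at least 1 negative TSA library 416 had a peak (43.5%, against 32.2%), in at least 3 of them 45 (4.70%, against 9.52%), in all 4 of them 9 (0.94%, against 5.99%) and in none 541 (56.5%, against 67.8%). No TSA library had a peak on 342 regions (35.7%, against 65.3%). The pattern of the choice itself, at least 3 of 4 positive and 0 of 4 negative, recurred under TSA in 39 regions (4.08%, against 0.11%), and in all 4 positive and 0 negative in 13 (1.36%, against 0.0343%). The reverse pattern, at least 3 negative and 0 positive, was found in 15 (1.57%, against 2.99%). Next to the members, 1078 regions had a peak in all 3 positive and 1 negative vehicle library. These 3 patterns were found in 2.69%, 1.02% and 5.01% of those 1078. At least 1 positive TSA library had a peak on 54.0% of them, and at least 3 had one on 13.7%, both above the member shares. Regions that kept their peak were the stronger and longer ones in vehicle: the median rank percentile was 37.6 for the 544 regions without a positive TSA peak and 59.1 for the 31 with all 4, and the median length 372 and 625 bp.

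**Figure D4:**
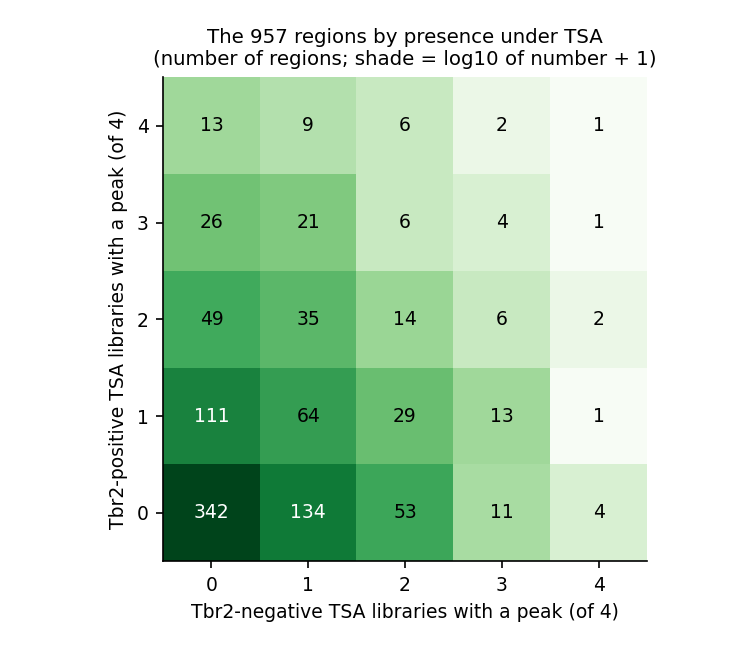
Number of the 957 Tbr2-positive-only regions by how many of the 4 Tbr2-negative (x) and 4 Tbr2-positive (y) TSA libraries had a peak on them, shaded by the log10 of the number + 1. The largest cell is 342 regions without a peak in any TSA library, and 13 regions had a peak in all 4 positive and 0 negative TSA libraries.

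A share under TSA needs a base that the choice did not fix, because members had a peak in every positive vehicle library by definition. When 1 positive vehicle library was left out of the rule in turn, 49.2%, 35.98% and 38.5% of the regions so chosen (2102, 2852 and 2746) had a peak in the left-out library 1, 2 or 3. Leaving out a negative vehicle library in turn gave 17.4% to 28.04% with a peak in it. Of all regions away from gene ends, 33.9%, 22.3% and 24.1% had a peak in positive vehicle library 1, 2 and 3. In the negative vehicle libraries 20.7% to 32.5% did. Each left-out positive share was above that of all regions in the same library, and the left-out negative shares lay near or below theirs. All regions include those called in the left-out library alone, so this base is a rough one. The mirror rule for negative-only regions returned 56.1% to 70.9% in the left-out negative library. It asked for a peak in 3 remaining negative libraries, against 2 remaining positive ones above, so the 2 shares are not like for like. Fewer than 50% of the positive-only regions therefore recurred in a further vehicle library of the same group, in each of the 3 cases.

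With 1 positive and 1 negative vehicle library left out together, in 12 pairs, the 4 groups could be read on the same regions. On all deposited peaks, the left-out positive vehicle library had a peak on 37.6% to 52.7% of regions and the left-out negative one on 13.02% to 22.6%. The mean over the positive TSA libraries was 10.8% to 14.9%, and over the negative TSA libraries 13.8% to 16.47%. The positive TSA libraries thus lay near the negative ones and far below the held-out positive vehicle libraries. These are the libraries with the fewest peaks, so the same was computed after keeping the 31823 peaks of best −log10 q in each of the 15 libraries, an alternative that changes both the choice of regions and the presence under TSA. The left-out positive vehicle library then had a peak on 54.5% to 58.6% of regions and the left-out negative one on 13.7% to 20.7%. The positive TSA mean was 40.0% to 42.4% and the negative TSA mean 11.6% to 13.4%. The 31823 peaks reached down to a −log10 q of 1.02 to 3.53 in positive TSA and 4.16 to 7.37 in negative TSA libraries. In the positive vehicle libraries they reached down to 4.76 to 5.73. Weaker peaks thus counted in the positive TSA libraries than in these others. At an equal number of peaks, and so at unequal q thresholds, the populations separated under TSA. The positive TSA share stayed below that of the held-out positive vehicle libraries in both versions.

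**Figure D5:**
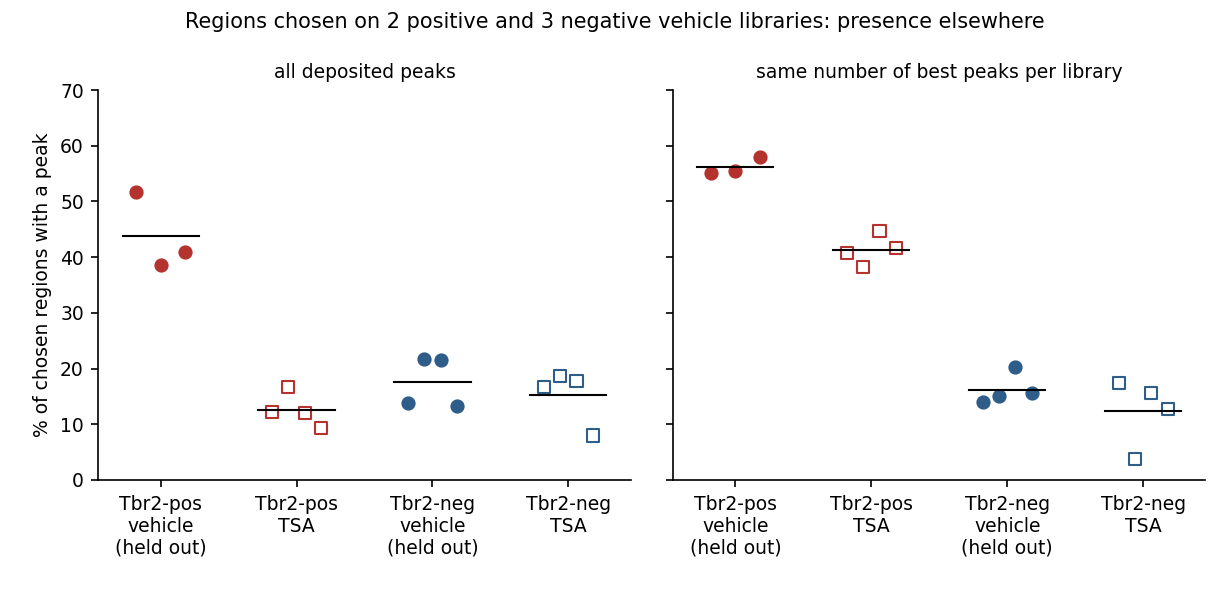
Percent of regions chosen on 2 positive and 3 negative vehicle libraries that had a peak in the left-out vehicle libraries (filled circles) and in the TSA libraries (open squares), 1 point per library as the mean over the 12 pairs, bar at the mean of the points. Positive TSA libraries lie at 9.28% to 16.7% with all peaks (left) and at 38.3% to 44.6% with the same number of best peaks per library (right), while negative TSA libraries lie at 7.97% to 18.7% and 3.81% to 17.3%.

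Applied to those 31823 best peaks, the rule itself gave 410 regions, of which 79 overlapped one of the 957 and 330 had a weaker peak in at least 1 negative vehicle library among all peaks. The share with a peak was then 50.5%, 50%, 57.1% and 55.1% in the positive and 18.3%, 2.20%, 15.9% and 13.9% in the negative TSA libraries, without overlap. Keeping the 957 regions and thinning the TSA libraries alone gave 14.2% to 17.2% and 1.04% to 4.18%, also without overlap. Both versions carry the unequal q thresholds given above. Taking the 410 regions with all TSA peaks gave 55.1% to 67.3% and 26.8% to 48.1%. How far apart the populations stood under TSA on these regions thus depended on the number of peaks, and peak number, input depth and TSA cannot be told apart within the Tbr2-positive group.

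Genes next to the regions that kept their peak differed more in vehicle RNA. For regions with a peak in at least 3 positive TSA libraries, 30 of 72 tested nearest genes were higher (41.7%) and 7 lower (9.72%), and the median log2 fold change was 0.459. For regions without a peak in any TSA library, 50 of 285 were higher (17.5%) and 54 lower (18.9%), with a median of 0.031. The difference between these 2 classes was not tested, and the first class also held stronger and longer peaks.

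Single regions show both outcomes. Among the 13 with a peak in all 4 positive and 0 negative TSA libraries, the best ranked lay in Faf1, near Tnik, in Snx24, in Egfr and in Uaca. Uaca, which encodes a coiled-coil protein, had 19.7, 21.8 and 21.3 CPM in the positive against 5.75, 5.86 and 6.34 CPM in the negative vehicle libraries (log2 fold change 1.81 ± 0.23, adjusted p = 0.000126, edgeR), and its region lay 3.75 kb from its end. Tnik, a kinase of the Wnt pathway, had 264 to 278 against 298 to 424 CPM and did not pass (adjusted p = 0.106). The levels of Snx24, a sorting nexin, and of Egfr, the epidermal growth factor receptor, overlapped between populations (adjusted p = 0.363 and 0.88). The intragenic region of Loxl1 was also among the 13, and its other region had a peak in 3 positive and 0 negative TSA libraries. The strongest regions without any positive TSA peak were near Opn1sw, Epc2 and Nhlh1. For Nhlh1 all 8 TSA libraries lacked a peak, whereas its RNA in positive TSA libraries was 25.1 and 30.9 CPM, within the vehicle range of 19.5 to 38.1 CPM. The Eomes region had a peak in 1 positive and 0 negative TSA libraries, and Eomes RNA stood at 391 and 462 CPM in positive TSA libraries, within the vehicle range.

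Few of the nearest genes passed for RNA under TSA by edgeR. With 2 TSA libraries per population, a missing call does not show that a gene was unchanged. In Tbr2-positive libraries 0 of the 746 genes passed in either direction by edgeR (0.0% of all genes tested). An unadjusted p under 0.05 was found for 119 of them, beside 3175 of all 20078 genes. DESeq2 called 17 higher and 15 lower, beside 543 and 453 of all 20078 genes. Without the filter on low counts edgeR called 9 and 8, beside 240 and 124 of all 30599 genes. The smallest p among higher genes belonged to the ribosomal protein genes Rpl38 and Rpl11 and to Zswim6, with adjusted p of 0.0948, 0.1 and 0.0948. Rpl38 had 105 CPM in both positive TSA libraries against 37.2, 51.0 and 64.8 CPM in vehicle (log2 fold change 1.04 ± 0.22). Among lower values they belonged to Dscaml1, a cell adhesion molecule (−0.81 ± 0.17), the hexokinase gene Hk1 (−1.03 ± 0.24) and Nckap5 (−0.79 ± 0.18), with adjusted p of 0.0948 to 0.0972. Hk1 had 21.3 and 38.1 CPM under TSA against 55.3 to 65.7 CPM, and Dscaml1 40.9 and 40.5 against 69.2 to 74.9 CPM. For the 6 basal progenitor genes, the log2 fold change under TSA in positive libraries ran from −0.41 ± 0.24 (Sstr2) to 0.10 ± 0.21 (Elavl4), with adjusted p of at least 0.433.

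In Tbr2-negative libraries 5 of the 746 genes were higher under TSA (0.67%, against 0.817% of all genes tested) and 0 were lower (0.0%, against 0.359%), a share near the background. The 5 were Rpl38 (1.29 ± 0.22; 178 and 140 against 53.5, 77.7 and 64.0 CPM), Cggbp1, a repeat-binding protein (0.96 ± 0.18), Cntnap2, a neurexin family adhesion molecule (0.91 ± 0.17), Rpl11 (0.90 ± 0.19) and the zinc finger factor Zic1 (1.37 ± 0.28; 88.1 and 109.5 against 27.6, 51.0 and 36.2 CPM). Adjusted p was 0.0481 or 0.0482 for each (edgeR). Zic1 was named because the count is small, after its values were seen, and its nearest region is the first of the sequences above, without a peak in any TSA library. The number of higher genes ranged from 0 to 18 when single RNA libraries were left out, and the calls of Rpl38, Cggbp1 and Cntnap2 were lost without positive vehicle library 2, negative vehicle library 1 or 3, or either negative TSA library (adjusted p up to 0.513). They were also lost with the replicate number as a block (adjusted p = 0.065 for Rpl38 and 0.0658 for the other two). With 0 lower genes passing, 149 genes in either direction had an unadjusted p under 0.05, beside 4037 of all 20078 genes. DESeq2 called 39 higher and 29 lower, beside 1069 and 914 of all genes, so the shares were close to the background by these counts too. The smallest p among lower values belonged to Arid3b (−1.25 ± 0.29), Arglu1 (−0.77 ± 0.18) and Dennd6b (−0.94 ± 0.22), at adjusted p of 0.0541 to 0.0552. The difference in TSA effect between the populations passed for 0 of the 746 genes by edgeR (0.0% of all genes tested). An unadjusted p under 0.05 was found for 44 of them, beside 1103 of all 20078 genes. By DESeq2 it also passed for 0 of the 746, and for 8 higher and 4 lower of all 20078 genes.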

How the data were processed

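The authors deposited RNA as an unnormalized count for each Ensembl gene. The submitters' processing notes name SAMtools and mm10, and the aligner, counter and annotation were not given in the labels or headers. The kit named in the labels does not keep strand. Peaks were called by the authors per library with MACS 2.1.0.20140616 at a q value of 0.1, with 1 input library per group and duplicates removed, per the file headers. The deposited peak lists hold −log10 values of p and q, a fold (ratio) over local background and a signal, the pileup at the summit; per the file headers all come from MACS, and −log10 q alone was used to rank peaks.

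Peaks of the 7 vehicle libraries were merged wherever intervals overlapped, and a library counted as present on a region with any overlap. Distances to gene ends came from RefSeq (GRCm38.p6), without strand. RNA was fitted with edgeR 4.0.16 (R 4.3.3) over all 10 libraries, 1 mean per group, filterByExpr, TMM scaling and a robust quasi-likelihood test, with Benjamini-Hochberg adjustment over all 20078 genes. CPM are counts over TMM-scaled totals, and standard errors are of log2 fold changes. No p was computed over regions. Scripts were tested on simulated data. The 4 input libraries and any further files were not used here.

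The regions and gene lists were chosen with earlier results of these data known. Genes named are the 10 largest positive and 5 largest negative vehicle differences with non-overlapping ranges and at least 2 CPM, the 6 genes with most regions, the genes of the 10 strongest regions, the basal progenitor list, the 3 smallest p per direction under TSA, and the genes of the 6 strongest kept and 3 strongest lost regions. 1 named gene is not reported here. Clone-like symbols were left out, so BC052040 was named outside the rule, as were list members beyond the 3 of smallest p in a list, after their values were seen. Alternatives were RLE scaling, DESeq2 1.42.0, no filter, a replicate block, leaving out each library, −log10 q of at least 2, the same number of best peaks, 20% coverage, 5 kb from gene ends, the host gene, and a limit of 100 kb.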

Additional observations from a re-analysis of the deposited data

Results flagged for a closer look

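The share of shared regions with a peak and the number of ChIP tags each stood apart from the other 3 libraries of their group, both from Tbr2-negative TSA library 4. Its gap to the nearest library, relative to the range of its group, exceeded the 95% critical value of Dixon's test. It held 15.2 M ChIP tags (1 M is 1e6 reads), and the regions with a peak in all 7 vehicle libraries had a peak there in 88.5% of cases. Of the 957 Tbr2-positive-only regions it covered 7.94%, which did not exceed that value. Chance gives such a flag in about 1 of 20 groups, and 34 groups of 4 libraries were looked at.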

How the results depend on the processing

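Peak presence rests on a threshold of q in each library, so a missing peak is no absence of acetylation, and the depth behind single regions is unknown. Without 1 vehicle library in turn the rule gave 1158 to 2852 regions in place of 957. The mean share with a peak in positive TSA libraries (19.02%) became 53.2% with the same number of best peaks in all 15 libraries, and 59.9% where the regions alone were chosen that way. The negative share (16.3%) became 2.69% where the TSA libraries alone were reduced to that number, and 40.5% where the regions alone were chosen that way. Without single TSA libraries the shares were 17.0% to 20.6% and 14.98% to 19.05%. The separate versions and the paired hold-out were chosen after seeing the data. With the 410 regions of the equal peak number, 95 nearest genes were higher and 62 lower in vehicle, and 1 higher and 1 lower under TSA in negative libraries. Without single RNA libraries, 148 to 184 genes were higher and 91 to 123 lower in vehicle. Under TSA in positive libraries, DESeq2 called 17 higher and 15 lower, edgeR without the filter 9 and 8, and edgeR without single libraries 0 higher and 0 to 2 lower. In negative libraries these were 39 and 29, 19 and 13, and 0 to 18 and 0 to 5. There, 1 gene was lower with −log10 q of at least 2 and 1 with equal numbers of vehicle peaks. Sign changed in vehicle for 3 genes that did not pass: Egfr (−0.086 with the replicate block, −0.124 to 0.578 without single libraries), Epc2 (−0.125 to 0.23) and Rpl11 (0.001 without the filter, −0.184 to 0.112). The cause of these changes was not tested.

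RNA replicate numbers are shared by the populations, but nothing states that a number marks 1 animal. Same-numbered vehicle libraries deviated together with correlations of 0.099, 0.081 and 0.099, each higher than with another number. With the replicate block, 192 genes were higher and 129 lower in vehicle, and 0 were higher under TSA in negative libraries. No paired analysis was possible for H3K9ac because peak shares came from no test and the numbers in titles and files differ.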
